A study of Homo sapiens with 11 samples.

Results

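The clustered protocadherins are 53 protein-coding genes on human chromosome 5q31, taken here as all those on chromosome 5 whose symbol starts with PCDHA, PCDHB or PCDHG, out of 20033 protein-coding genes in the GENCODE 44 annotation. There are 15 alpha, 16 beta and 22 gamma genes, and the choice used gene names and position only. Binding of Ikaros, the zinc finger transcription factor encoded by IKZF1, had been mapped by chromatin immunoprecipitation and sequencing (ChIP-seq) in established B-cell acute lymphoblastic leukemia (B-ALL) lines, and the peak lists were examined for these genes. The lists came from JM1 cells given 20 µM CX-4945 for 1 day, untreated REH cells, Nalm6 cells given the same treatment, untreated 697 cells and untreated JM1 cells. CX-4945 inhibits casein kinase CK2, which phosphorylates Ikaros. The Ikaros antibody for JM1 and REH came from Bethyl and that for Nalm6 and 697 is described as affinity-purified, and no untreated Nalm6 or treated 697 or REH cells were analysed here. Of 11 libraries, 6 were Ikaros libraries and 5 were inputs without a peak list analysed here, and each condition had 1 list, so no difference between lists had a replicate check and none was tested.

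Clustered protocadherins are cell-surface adhesion proteins of the cadherin superfamily, best known in neurons, where each cell expresses a small set of them and the set serves in telling a cell's own branches from those of other cells. In the alpha and gamma clusters each gene has its own promoter and its own large variable exon, which codes for the extracellular, transmembrane and first cytoplasmic part and is spliced to constant exons at the end of the cluster. Beta genes consist in the main of 1 large coding exon and share no constant exons. Most promoters, called alternate here, are chosen at random in neurons through the insulator factor CTCF and cohesin. The C-type genes PCDHAC1, PCDHAC2, PCDHGC3, PCDHGC4 and PCDHGC5 lie at the ends of their clusters and are known for more constitutive expression in neurons.

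The members lay head to tail on the plus strand of GRCh38 (hg38). The alpha cluster spanned chr5:140786136-141012347, the beta cluster chr5:141051374-141249365 and the gamma cluster chr5:141330514-141512977, which are 226, 198 and 182 kb. The variable exon, taken as the largest coding exon of each gene, had a median length of 2442 bp in alpha, 2390 bp in beta and 2460 bp in gamma genes, and these exons made up 16.3, 19.3 and 30.0% of their clusters. Of the 53 members, 47 had a promoter sequence in RefSeq. Promoters of 4 members are given here, to show a gene of each cluster that had a peak near a start site (PCDHAC1, PCDHB2 and PCDHGC3) beside PCDHA1, which had none there in any list, though it had a peak on its variable exon in REH and in treated Nalm6. Each runs from about 250 bases before to 50 after a start site, 5′ to 3′ on the plus strand, from the RefSeq table for GRCh38.p14. Capitals mark the Ikaros core GGGAA or its reverse complement TTCCC. The windows are chr5:140926049-140926348 for PCDHAC1, chr5:141094365-141094664 for PCDHB2, chr5:141475716-141476015 for PCDHGC3 and chr5:140785890-140786189 for PCDHA1.
PCDHAC1: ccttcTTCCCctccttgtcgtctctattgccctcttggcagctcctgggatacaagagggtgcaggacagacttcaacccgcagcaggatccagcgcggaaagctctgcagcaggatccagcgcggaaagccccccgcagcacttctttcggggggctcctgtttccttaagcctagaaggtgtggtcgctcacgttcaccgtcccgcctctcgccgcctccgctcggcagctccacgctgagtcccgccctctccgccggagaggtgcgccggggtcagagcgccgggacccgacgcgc
PCDHB2: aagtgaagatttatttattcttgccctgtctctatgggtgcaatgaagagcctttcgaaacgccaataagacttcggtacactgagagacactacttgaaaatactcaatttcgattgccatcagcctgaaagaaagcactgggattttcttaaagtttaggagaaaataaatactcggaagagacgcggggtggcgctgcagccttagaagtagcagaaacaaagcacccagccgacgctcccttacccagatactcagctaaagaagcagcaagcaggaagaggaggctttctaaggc
PCDHGC3: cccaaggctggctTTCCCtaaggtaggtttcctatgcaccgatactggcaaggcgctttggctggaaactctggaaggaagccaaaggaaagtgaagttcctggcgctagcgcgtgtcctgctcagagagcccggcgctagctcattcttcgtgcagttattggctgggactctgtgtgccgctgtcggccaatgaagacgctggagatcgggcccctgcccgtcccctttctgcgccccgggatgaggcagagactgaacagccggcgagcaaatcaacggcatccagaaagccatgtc
PCDHA1: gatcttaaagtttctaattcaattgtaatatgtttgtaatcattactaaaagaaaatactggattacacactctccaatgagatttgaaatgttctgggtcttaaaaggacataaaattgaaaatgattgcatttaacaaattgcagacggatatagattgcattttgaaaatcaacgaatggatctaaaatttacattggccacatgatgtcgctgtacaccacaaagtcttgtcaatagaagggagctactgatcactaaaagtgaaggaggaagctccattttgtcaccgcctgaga
PCDHAC1 and PCDHGC3 each held 1 TTCCC, and PCDHB2 and PCDHA1 held no match on either strand. The GC content was 66.0% in PCDHAC1, 45.3% in PCDHB2, 59.0% in PCDHGC3 and 34.0% in PCDHA1. A peak overlapped the PCDHAC1 window in treated JM1, REH, treated Nalm6 and 697, the PCDHGC3 window in REH and treated Nalm6, the PCDHB2 window in treated Nalm6 and the PCDHA1 window in none of the 5 lists.

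Ikaros peaks were found at far fewer start sites of clustered protocadherins than of other genes. A member was counted when any part of a peak lay within 1000 bp of one of its annotated transcription start sites (TSSs). In treated JM1, 18 of the 53 members had such a peak (34.0%), against 81.2% of all protein-coding genes. In REH, 19 members did (35.8%, against 81.8% of all genes), and in treated Nalm6 14 did (26.4%, against 74.3%). In 697, 2 members did (3.77%, against 49.5%), and in untreated JM1 4 did (7.55%, against 58.8%). The lists held 88692 peaks in treated JM1, 83563 in REH, 70894 in treated Nalm6, 19652 in 697 and 37448 in untreated JM1, and the member counts were lowest in the 2 shortest lists. Read depth and call settings were not analysed here, so a longer list is not shown to mean more binding.

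Adding peaks that the authors had assigned to a member by gene name, whatever the distance, gave 24 members in treated JM1, 25 in REH, 23 in treated Nalm6, 5 in 697 and 6 in untreated JM1, against 85.7, 85.3, 79.6, 52.9 and 64.4% of all genes.

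The genes around the clusters did not share this low share. Of the 38 other protein-coding genes with a TSS within 1 Mb of the clusters, 36 had a near-TSS peak in treated JM1 (94.7%), 35 in REH (92.1%), 31 in treated Nalm6 (81.6%), 17 in 697 (44.7%) and 23 in untreated JM1 (60.5%). IGIP and a gene without a symbol had none in any list. ZMAT2 had one in treated JM1 alone (score 11), and TAF7 in treated JM1 and REH alone (23 and 67). SLC25A2 had scores of 11 in treated JM1, 17 in REH, 25 in treated Nalm6 and 10 in untreated JM1, with none in 697. The genes nearest the clusters were not counted apart. Non-clustered protocadherins, members of the same superfamily encoded by single genes outside the clusters, had one at 9, 9 and 9 of 12 genes in treated JM1, REH and treated Nalm6, and at 6 of 12 in both 697 and untreated JM1. PCDH1 and PCDH12 lie within 1 Mb of the clusters and are counted in both groups. PCDH11X and PCDH18 had none in any list, and PCDH9 had top scores of 41 in treated JM1, 89 in REH, 39 in treated Nalm6 and 21 in 697, with no peak in untreated JM1. The score is the authors' whole number for each peak, at least 10 in every list, and it is used here only to describe peaks within a list.

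**Figure D1:**
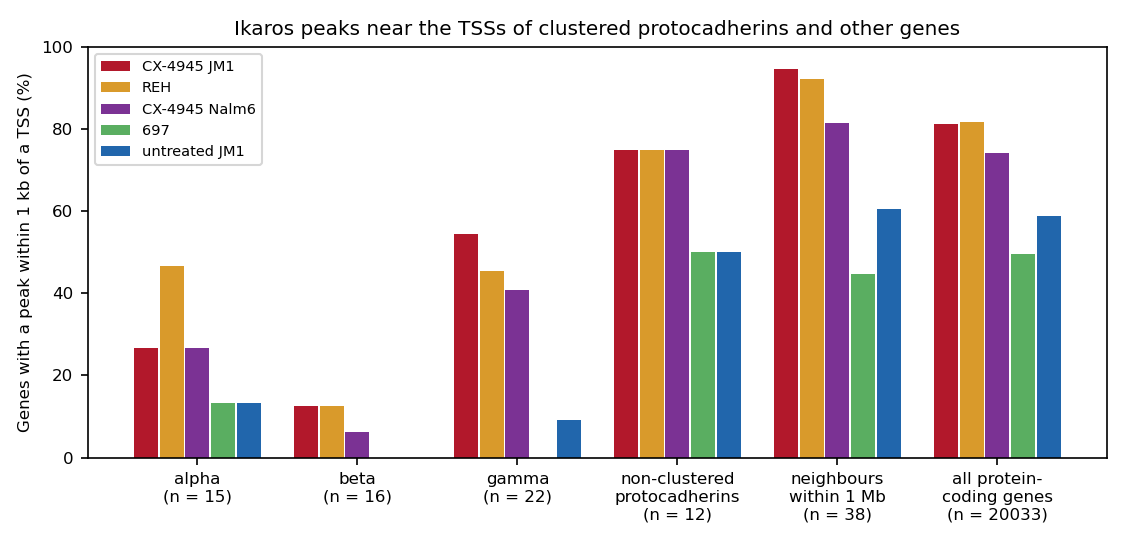
Percent of genes with an Ikaros peak within 1000 bp of a TSS (y axis) in 6 gene groups (x axis), 1 bar per list, with no error bars because each condition had 1 list. In each of the 5 lists the bars of the 3 protocadherin clusters stand below those of the non-clustered protocadherins, the 38 neighbours and all 20033 protein-coding genes.

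The 3 clusters differed among themselves, with the beta cluster close to empty. Near-TSS peaks were at 12 of 22 gamma genes in treated JM1, 10 in REH, 9 in treated Nalm6, none in 697 and 2 in untreated JM1. In the alpha cluster the counts were 4, 7, 4, 2 and 2 of 15 genes in the same order of lists. In the beta cluster they were 2, 2, 1, 0 and 0 of 16 genes. The 4 beta genes with any near-TSS peak were PCDHB1 (score 15 in treated JM1), PCDHB2 (15 in treated JM1 and 14 in treated Nalm6), PCDHB3 (12 in REH) and PCDHB15 (24 in REH). Peaks covered 14.8% of the gamma cluster in treated JM1, 16.4% in REH, 10.4% in treated Nalm6, 1.56% in 697 and 2.66% in untreated JM1. For the beta cluster the same shares were 1.01, 0.704, 0.297, 0 and 0.167%, and for the alpha cluster 2.72, 4.96, 4.11, 0.684 and 1.12%. Peaks covered 5.70, 5.76, 3.21, 0.524 and 1.44% of the genome, so the gamma cluster lay above that share in each list and the beta cluster below it.

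A larger share of the C-type genes than of the alternate genes had near-TSS peaks in every list. A near-TSS peak was present at 4 of 5 C-type genes in treated JM1, 4 in REH, 3 in treated Nalm6, 2 in 697 and 3 in untreated JM1. These shares of 80, 80, 60, 40 and 60% compare with 81.2, 81.8, 74.3, 49.5 and 58.8% of all genes. The C-type genes thus did not stand clearly above protein-coding genes in general in any list. In untreated JM1, PCDHGC3 was called by a later TSS only. Of the 48 alternate genes, 14 had one in treated JM1, 15 in REH, 11 in treated Nalm6, 0 in 697 and 1 in untreated JM1. PCDHAC1 and PCDHAC2 were the only members with a near-TSS peak in all 5 lists, against 41.8% of all genes. At the other end, 25 members (6 alpha, 12 beta and 7 gamma) had none in any list, against 14.7% of all genes. The alpha genes among them were PCDHA1, PCDHA6, PCDHA7, PCDHA9, PCDHA12 and PCDHA13, and the gamma genes were PCDHGA1, PCDHGA3 and PCDHGB1 with PCDHGB4 to PCDHGB7.

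**Figure D2:**
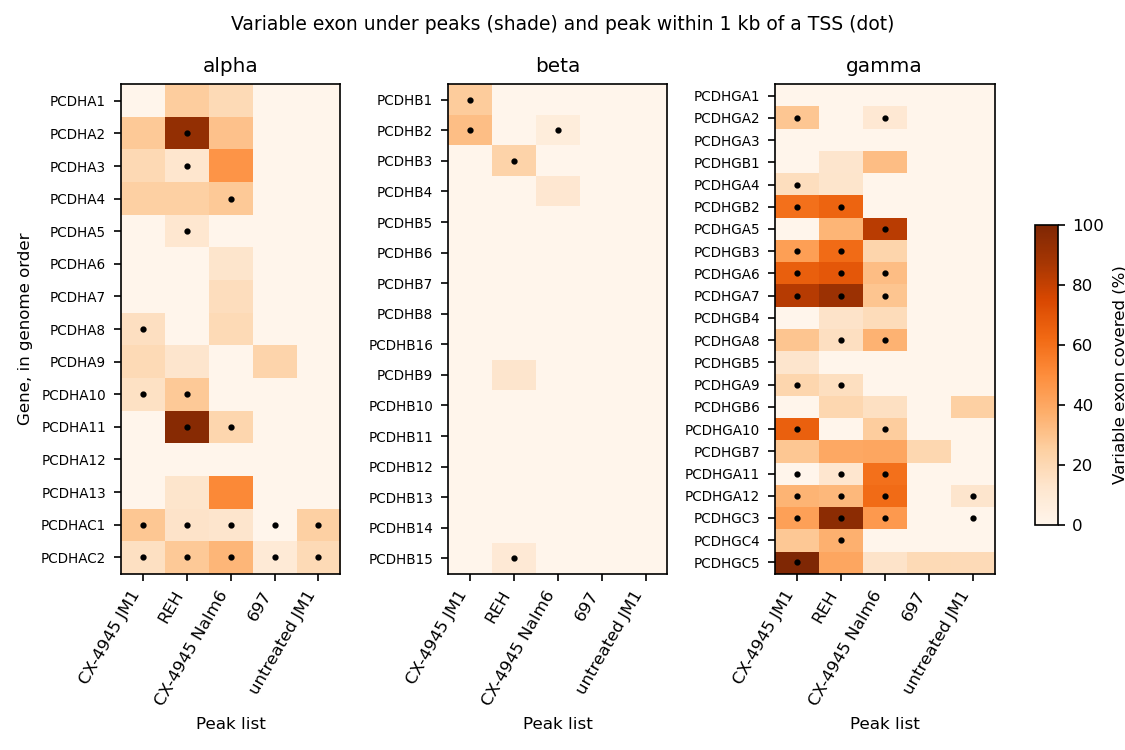
Each row is a member in genome order and each column a list, with the shade giving the percent of the variable exon under peaks and a dot marking a peak within 1000 bp of a TSS. The beta panel is close to blank, the C-type genes at the foot of the alpha and gamma panels carry most of the dots in 697 and untreated JM1, and PCDHA12, PCDHGA1 and PCDHGA3 are blank in every list.

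PCDHAC1 had a peak score of 20 in treated JM1, 29 in REH, 62 in treated Nalm6, 28 in 697 and 16 in untreated JM1. Within their lists these scores stood at percentiles 60.6, 72.6, 97.5, 64.1 and 58.2, so the gene was near the top of the treated Nalm6 list and above the middle of the others. The peaks in treated JM1, REH, treated Nalm6 and 697 covered the TSS, and the untreated JM1 peak began 588 bp downstream of it. The 697 peak ended before the variable exon, and the untreated JM1 and 697 peaks shared no base.

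PCDHAC2 had scores of 20 in treated JM1, 20 in REH, 28 in treated Nalm6, 54 in 697 and 14 in untreated JM1. The percentiles were 60.6, 44.2, 72.0, 93.7 and 40.3, highest in 697. All 5 peaks shared a stretch of 431 bp at chr5:140966571-140967001, from the 5′ untranslated region into the start of the variable exon. Its coding part, at chr5:140966767-140967001 on the plus strand of hg38, is printed from the ATG because it is the start of a variable exon and was under a peak in every list. It is 70.6% GC and holds no GGGAA on either strand, so no base is in capitals, while the whole 431 bp stretch holds 1.
PCDHAC2: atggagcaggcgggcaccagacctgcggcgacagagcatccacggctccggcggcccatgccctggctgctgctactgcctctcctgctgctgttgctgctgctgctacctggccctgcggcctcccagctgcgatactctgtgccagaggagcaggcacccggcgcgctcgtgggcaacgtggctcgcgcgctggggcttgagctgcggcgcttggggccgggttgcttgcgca

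PCDHGC5, the last gene of the gamma cluster, had a peak on its variable exon in all 5 lists but within 1000 bp of its TSS in treated JM1 alone. The highest scores on the exon were 19 in treated JM1, 55 in REH, 26 in treated Nalm6, 24 in 697 and 15 in untreated JM1. Peaks covered 100% of the exon in treated JM1, 40.4% in REH, 14.0% in treated Nalm6, 19.3% in 697 and 18.8% in untreated JM1. The 1156 bp common to all 5 lists, chr5:141491505-141492660, ran from the end of the exon into the intron and held no GGGAA on either strand at 67.3% GC. Its middle 300 bases, chr5:141491933-141492232 on the plus strand of hg38, lie in the intron just past the variable exon and are shown as the other stretch shared by every list.
PCDHGC5: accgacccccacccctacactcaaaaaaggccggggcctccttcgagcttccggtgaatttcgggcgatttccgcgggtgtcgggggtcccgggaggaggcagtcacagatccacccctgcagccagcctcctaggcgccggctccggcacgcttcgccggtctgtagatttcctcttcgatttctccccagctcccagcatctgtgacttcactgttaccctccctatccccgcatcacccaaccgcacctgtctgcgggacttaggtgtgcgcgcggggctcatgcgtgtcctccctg
Only these 2 stretches in the 3 clusters were under peaks of all 5 lists at the same bases.

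PCDHGC3, the C-type gene known to be broadly expressed outside the brain as well, had near-TSS peaks in 4 lists. Its top scores were 38 in treated JM1, 54 in REH, 22 in treated Nalm6 and 17 in untreated JM1, with none in 697. These top peaks did not lie at its first TSS but at the start of a short annotated transcript more than 31 kb downstream, beside the constant exons that all gamma genes share. At its variable exon the scores were 22 in treated JM1, 33 in REH and 20 in treated Nalm6, and neither 697 nor untreated JM1 had a peak there. The region at the constant exons and the 3′ end of the cluster, chr5:141507110-141515596, held peaks of every list, with top scores of 38 in treated JM1, 54 in REH, 43 in treated Nalm6, 14 in 697 and 17 in untreated JM1. PCDHGC4 had a near-TSS peak in REH (score 26) and an exon peak of score 16 in treated JM1.

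Among the alternate genes, PCDHGA12, the last alternate gene of its cluster, had near-TSS peaks in 4 lists, with scores of 32 in treated JM1, 48 in REH, 16 in treated Nalm6 and 13 in untreated JM1. Its untreated JM1 peak began 914 bp downstream of the TSS and the REH peak 37 bp downstream. PCDHGA6, PCDHGA7 and PCDHGA11 had them in treated JM1, REH and treated Nalm6. PCDHGA7 had scores of 17 in treated JM1, 24 in REH and 29 in treated Nalm6, and peaks covered 83.4, 90.9 and 29.2% of its variable exon. PCDHGA6 had scores of 19, 15 and 14 in the same lists, with 66.2, 68.9 and 31.9% of its exon covered. PCDHGA11 had scores of 11, 19 and 22, from peaks that began upstream of its TSS, on the exon of its neighbour PCDHGB7. In treated Nalm6 that peak also ended upstream of the TSS, and a second peak, of score 20, lay on the PCDHGA11 exon. The near-TSS peaks of PCDHGA8, with scores of 25 in REH and 10 in treated Nalm6, ended upstream of its TSS. They lay on the variable exon of its neighbour PCDHGB4, which was not counted because they were over 1000 bp from its own TSS. PCDHGB2 had a score of 19 in treated JM1 and 17 in REH, and PCDHGB3 had 19 in treated JM1 and 15 in REH. In the alpha cluster the alternate genes with the highest near-TSS scores were PCDHA10 (21 in treated JM1 and 19 in REH), PCDHA5 (21 in REH) and PCDHA11 (21 in treated Nalm6 and 17 in REH). Both PCDHA10 peaks and the PCDHA11 peak of treated Nalm6 lay on the variable exon, more than 1000 bp downstream of the gene's first TSS. They were called by a later annotated TSS. By the first TSS alone, the alpha counts were 3 in treated JM1, 6 in REH and 3 in treated Nalm6. No alternate gene had a near-TSS peak in 697.

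Many of the peaks in the clusters overlapped a variable exon. The 3 intervals held 32 peaks in treated JM1, 37 in REH, 37 in treated Nalm6, 7 in 697 and 10 in untreated JM1. Of these, 25 of 32 overlapped a variable exon in treated JM1, 30 of 37 in REH, 30 of 37 in treated Nalm6, 4 of 7 in 697 and 5 of 10 in untreated JM1. The authors' annotation put 62.5% of the cluster peaks of treated JM1 in the exon class, against 6.65% of that whole list. The same shares were 62.2% against 6.95% in REH, 59.5% against 8.50% in treated Nalm6, 28.6% against 12.6% in 697 and 40.0% against 9.30% in untreated JM1. Their promoter class held 12.5% of the cluster peaks in treated JM1, against 16.1% of the list, 18.9% against 16.9% in REH, 13.5% against 19.2% in treated Nalm6, 42.9% against 40.7% in 697 and 30.0% against 26.3% in untreated JM1. The promoter class was thus smaller than the exon class in the clusters in 4 lists and larger in 697. Long exons in a dense cluster take up more sequence than those of most genes, whose largest coding exon has a median length of 330 bp, and no test of position was made.

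**Figure D3:**
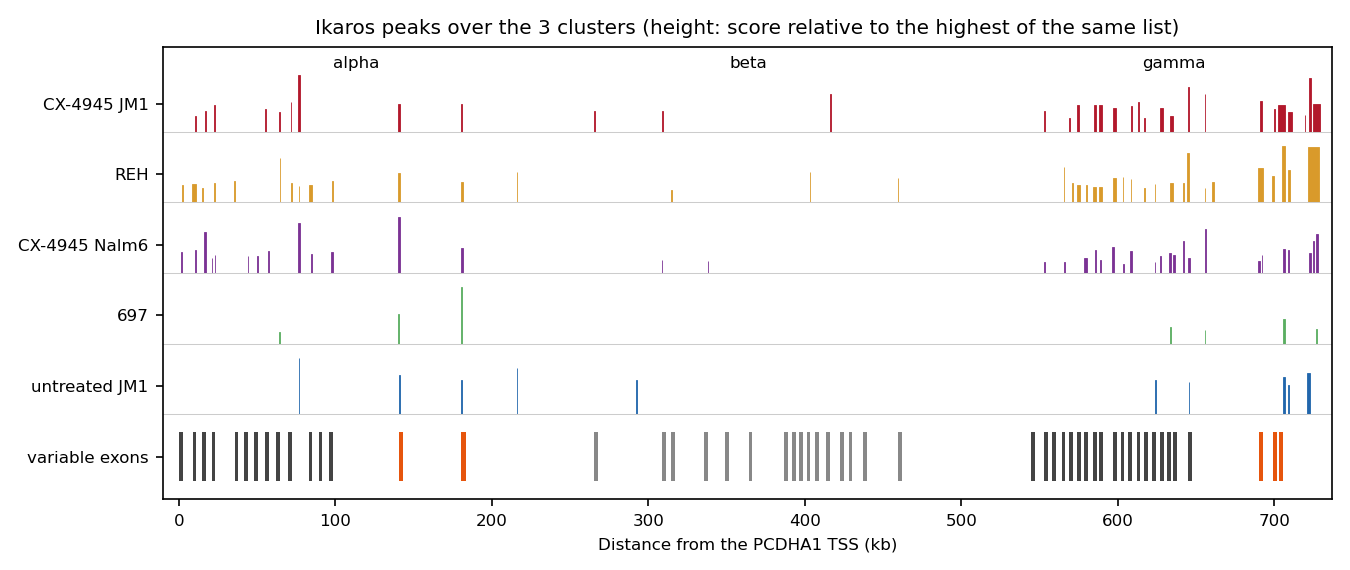
Ikaros peaks of each list along the 3 clusters, by distance from the PCDHA1 TSS in kb (x axis), with bar height giving the peak score relative to the highest score of the same list in the clusters, so that heights compare peaks within a list and not between lists. The bottom track shows variable exons (dark for alternate alpha and gamma genes, grey for beta genes, orange for C-type genes), and every list has peaks at PCDHAC1, at PCDHAC2 and at the 3′ end of gamma.

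Counted by the variable exon in place of the TSS, 25 members had a peak in treated JM1, 31 in REH, 28 in treated Nalm6, 4 in 697 and 5 in untreated JM1. The largest coding exon of a gene was under a peak for 42.1, 43.1, 35.0, 14.5 and 21.4% of all protein-coding genes in the same order. The members' shares of 47.2, 58.5, 52.8, 7.55 and 9.43% were thus above that background in the 3 long lists and below it in the 2 short ones. Among the 127 other genes whose largest coding exon fell within the range of lengths of the members', 52 had a peak on it in treated JM1 (40.9%), 49 in REH (38.6%), 43 in treated Nalm6 (33.9%), 19 in 697 and 29 in untreated JM1 (22.8%), so the members lay on the same side of these shares in each list. By cluster, exon peaks were at 8 alpha, 2 beta and 15 gamma genes in treated JM1, at 11, 3 and 17 in REH and at 11, 2 and 15 in treated Nalm6. In 697 they were at 2 alpha and 2 gamma genes (PCDHA9, PCDHAC2, PCDHGB7 and PCDHGC5), and in untreated JM1 at 2 alpha and 3 gamma genes (PCDHAC1, PCDHAC2, PCDHGB6, PCDHGA12 and PCDHGC5). The 13 members without an exon peak in any list were PCDHA12, 10 beta genes, PCDHGA1 and PCDHGA3.

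Along the genes, peaks lay near the start of the variable exon and again toward its 3′ part. In the alpha cluster the share of genes under a peak was highest 2000 to 2200 bp downstream of the TSS, in the 3′ part of the variable exon, at 4 of 15 genes in treated JM1, 6 in REH and 8 in treated Nalm6. At 300 bp downstream of the TSS it was 3 genes in treated JM1, 5 in REH and 3 in treated Nalm6, so in treated JM1 and REH the positions were 1 gene apart. In the gamma cluster it reached 9 of 22 genes at 200 bp in treated JM1, 10 at 1600 bp in REH and 9 at 1700 bp in treated Nalm6, and at 300 bp it was 9, 9 and 7 genes in these lists. The positions were not tested against each other, nor alpha against gamma. Over all protein-coding genes the maximum lay 100 to 200 bp downstream of the TSS in each of the 5 lists, at 69.0, 70.9, 58.6, 32.2 and 40.0% of genes. PCDHA3 in treated Nalm6 was an alpha gene with an exon peak away from its TSS, with a score of 45 over 47.2% of the exon, and PCDHA13 had one of score 23 over 51.3%. In REH single peaks spanned 93.3% of the PCDHA2 exon and 96.9% of the PCDHA11 exon.

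**Figure D4:**
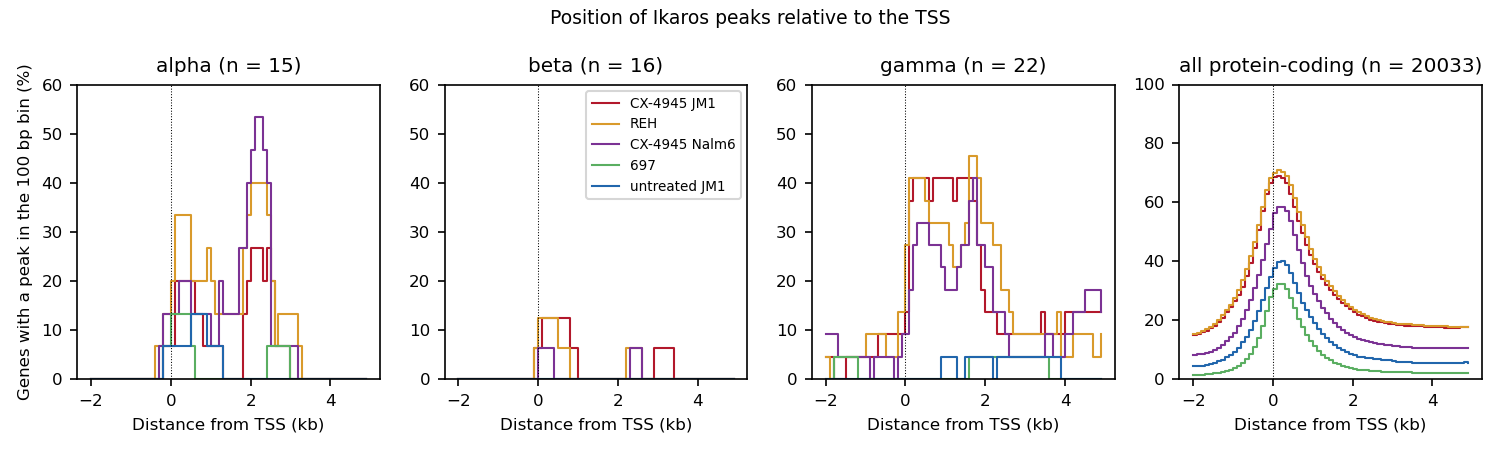
Percent of genes with a peak in each 100 bp bin (y axis, to 60% in the cluster panels and to 100% in the last) by distance from the TSS in kb (x axis), 1 line per list. Over all 20033 genes each line has a single maximum just downstream of the TSS, and in the alpha cluster the lines of REH and treated Nalm6 are highest about 2 kb downstream.

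Peaks also fell on relics of the family. A region over the pseudogene PCDHA14, chr5:140862351-140863456, held peaks of 4 lists, with scores of 40 in treated JM1, 16 in REH, 55 in treated Nalm6 and 23 in untreated JM1. A region over the pseudogene PCDHGB9P, chr5:141441567-141442181, also held peaks of 4 lists, with scores of 27 in treated JM1, 14 in REH, 48 in treated Nalm6 and 13 in 697. When the overlapping peaks of all lists were merged, the 3 clusters held 53 regions (19 alpha, 8 beta and 26 gamma), of which 19 came from 1 list, 16 from 2, 9 from 3, 5 from 4 and 4 from all 5. The 4 regions with every list were those of PCDHAC1, PCDHAC2, PCDHGC5 and the 3′ end of gamma. Of the 8 beta regions, 7 came from 1 list.

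Treatment with CX-4945 was compared in JM1, the line with both conditions. A near-TSS peak was present in both lists at 4 members (PCDHAC1, PCDHAC2, PCDHGA12 and PCDHGC3), against 58.2% of all genes. It was present in treated cells alone at 14 members, against 23.0% of all genes, and in untreated cells alone at none, against 0.564%. The other 35 had none in either list, against 18.2% of all genes. The 14 members were PCDHA8, PCDHA10, PCDHB1, PCDHB2, PCDHGA2, PCDHGA4, PCDHGB2, PCDHGB3, PCDHGA6, PCDHGA7, PCDHGA9, PCDHGA10, PCDHGA11 and PCDHGC5. As a share of 53 members, 14 is 26.4%, near the background of 23.0%, so it is not a result about these genes. The scores of the 14 in treated cells ran from 10 at PCDHGA4 and PCDHGA9 to 21 at PCDHA10, and the list's median was 18. PCDHA8 had 16, PCDHGA2 had 15 and PCDHGA10 had 17.

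The treated JM1 list was longer than the untreated one, and the part of that length in the 14 calls was not tested. With each list limited to its 19652 highest-scored peaks, the number in the shortest list, near-TSS peaks were at 2 members in treated JM1, 2 in REH, 2 in treated Nalm6, 2 in 697 and 2 in untreated JM1, against 60.5, 62.2, 54.4, 49.5 and 45.3% of all genes. None was then in all 5 lists (26.5% of all genes) and 48 were in none (24.1%). In these shortened lists PCDHGC3 had a near-TSS peak in both JM1 lists (39.4% of all genes), PCDHGA12 in treated cells alone (21.1%, against 23.0% of all genes with the full lists) and PCDHAC1 in untreated cells alone (5.86%), and 50 members had none in either (33.7%). By overlap of peaks in the clusters, 7 of 32 treated peaks overlapped an untreated one (21.9%), against 29.0% over the whole treated list. In the other direction 7 of 10 untreated peaks overlapped a treated one (70.0%), against 84.1% over the whole untreated list.

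REH and untreated JM1 shared the antibody and differed in the line and the length of the list. Near-TSS peaks were present in both at 4 members, the same 4 as in the pair of JM1 lists, against 58.3% of all genes. They were in REH alone at 15 members, against 23.5% of all genes, in untreated JM1 alone at none, against 0.454%, and in neither at 34, against 17.8%. Because both comparisons use the untreated JM1 list, the 4 members are not separate support for each other. Of the 37 REH peaks in the clusters, 9 overlapped an untreated JM1 peak (24.3%, against 30.4% over the list), and 9 of the 10 untreated JM1 peaks overlapped a REH peak (90.0%, against 85.2%).

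Treated Nalm6 and untreated 697 shared the other antibody, and line, treatment and list length cannot be told apart between them. PCDHAC1 and PCDHAC2 had near-TSS peaks in both, against 48.3% of all genes. Another 12 members had them in treated Nalm6 alone, against 26.0% of all genes, and none in 697 alone, against 1.12%, and 39 had none in either list, against 24.6%. Of the 37 treated Nalm6 peaks in the clusters, 6 overlapped a 697 peak (16.2%, against 21.7% over the list), and 6 of the 7 in 697 overlapped a treated Nalm6 peak (85.7%, against 88.3%). Among the long lists, treated JM1 and REH had 11 members with a near-TSS peak in common (78.5% of all genes), with 7 in treated JM1 alone (2.68%), 8 in REH alone (3.24%) and 27 in neither (15.5%). Treated JM1 and treated Nalm6 had 10 in common (72.3% of all genes), with 8 in treated JM1 alone (8.88%), 4 in treated Nalm6 alone (1.98%) and 31 in neither (16.8%). In both pairs the members found in 1 list alone made up a larger share of 53 than the background share beside them.

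Cluster peaks were narrow for their lists, and their scores lay near the middle of the list except in 697, where they lay lower. In treated JM1 the median width was 798 bp, and it was 696 bp in REH cells, 659 bp in treated Nalm6, 555 bp in 697 and 580 bp in untreated JM1, against list medians of 1185, 1195, 862, 626 and 874 bp. The median scores of cluster peaks were 18.5, 20, 22, 16 and 14.5, against 18, 21, 20, 22 and 15 over the lists. The median percentile of their scores within the list was 53.6 in treated JM1, 44.2 in REH, 55.6 in treated Nalm6, 26.0 in 697 and 45.1 in untreated JM1. At the highest end, no cluster peak exceeded a score of 62, while the highest scores of the whole lists ran from 489 in untreated JM1 to 4176 in treated Nalm6. The whole lists hold far more peaks, so these maxima are not comparable. The score of 62, in treated Nalm6, stood at percentile 97.5 of its list.

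The start sites of members were poor in GC for promoters. Within 500 bp on either side of the gene's TSS, the median GC content was 44.4% over members, against 59.2% over all protein-coding genes. It was 65.5% for the 8366 protein-coding genes with a near-TSS peak in all 5 lists and 43.8% for the 2949 with one in none. Among members it was 55.4% for C-type and 43.7% for alternate genes, and the highest values were those of PCDHAC2 (64.3%) and PCDHAC1 (63.1%), the genes with near-TSS peaks in every list. Among members the median was 46.5% over the 28 with a near-TSS peak in any list and 43.1% over the 25 with none. PCDHA11 had the lowest GC content (28.7%) and near-TSS peaks in 2 lists, but neither peak reached the bases measured. GC content was measured at the first TSS of a gene, while peaks near any annotated TSS were counted. PCDHGC4 (55.4%) and PCDHGC5 (54.1%) had near-TSS peaks in 1 list each. CpG dinucleotides were not depleted in the same way, with a ratio of observed to expected CpG of 0.653 over members, 0.688 over all genes and 0.230 over the genes with a near-TSS peak in no list. The variable exons of alternate genes were richer in GC in the 3′ part than in the 5′ part of equal length, with medians of 63.1 and 48.7%, whereas those of C-type genes had medians of 52.3% in the 3′ part and 57.3% in the 5′ part. PCDHGC5 differed from the other C-type genes, with 59.4% in the 3′ part and 54.8% in the 5′ part. PCDHB1 differed from the other alternate genes, with 43.8% in the 3′ part and 53.1% in the 5′ part. The part of GC content in the presence of peaks was not tested.

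Parts of the members' sequence also occur again on chromosome 5, which can limit where short reads are placed. Whether the other copies lay in other members was not examined. The share of 50-base stretches of the variable exon that occur again exactly on chromosome 5, on either strand, had a median of 24.3% in beta genes, 9.88% in alpha genes, 6.26% in gamma genes and 0 in C-type genes. It was highest at PCDHB10 (48.8%), PCDHB8 (47.9%) and PCDHB13 (46.1%), none of which had an exon peak in any list. The next highest were PCDHB9 (39.2%), PCDHB2 (35.2%), PCDHA6 (34.6%) and PCDHA9 (33.2%), each with an exon peak in at least 1 list. The median was 21.2% over the 13 members with no exon peak and 9.71% over the 40 with one. PCDHB1, with 0, and PCDHB2, with 35.2%, both had peaks, and PCDHA12, with 9.88%, had none. How the authors treated reads that match more than 1 place was not stated in the labels or headers, and the part of repeated sequence in the result was not tested.

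**Figure D5:**
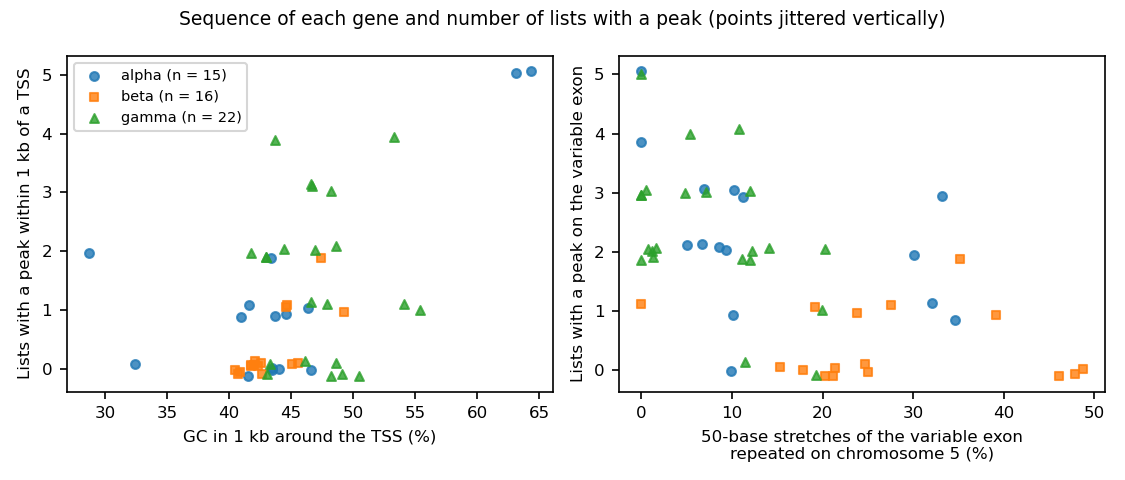
Number of lists with a near-TSS peak against GC content in the 1 kb around the TSS in percent (left), and number of lists with a peak on the variable exon against the percent of its 50-base stretches repeated on chromosome 5 (right), 1 point per member, moved slightly up or down at random so that points show. PCDHAC1 and PCDHAC2 are the points with 5 lists above 60% GC, and the beta genes (squares) take most of the right-hand side of the second panel at 0 to 2 lists.

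The Ikaros core was searched on both strands as GGGAA and as TGGGAA, whose matches are also matches of GGGAA. In the 47 RefSeq promoters of members, GGGAA was present in 32 (68.1%), against 65.0% of 35116 promoters of all genes, and TGGGAA in 15 (31.9%), against 24.0%. CGCT, the core of the element conserved in protocadherin promoters, was present on either strand in 46 of the 47 (97.9%), against 70.0% of all promoters, and PCDHA9 was the promoter without it. In the 300 bases around the centres of cluster peaks, GGGAA was present in 43.8% in treated JM1, 43.2% in REH, 40.5% in treated Nalm6, 14.3% in 697 and 40.0% in untreated JM1. Over the whole lists the shares were 64.0, 64.2, 64.6, 59.7 and 65.3%, above those of the cluster peaks in each list. In consecutive 300-base windows through the clusters, whether under a peak or not, GGGAA was present in 44.0% of alpha, 42.8% of beta and 50.2% of gamma windows.

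A second pattern, CC, any 3 bases, AG, any 2 bases and GGC, taken from the core of the CTCF motif and searched on both strands, was present in 1 of the 47 promoters (PCDHB9, 2.13%), against 10.6% of all promoters. In the variable exons there were 77 matches, in 40 of the 53. The exons are far longer than the 300-base promoters, so the counts of promoters and exons with a match are not comparable. Of the 77 matches, 11 lay under a peak in treated JM1, 17 in REH, 19 in treated Nalm6 and none in 697 or untreated JM1. Peaks covered on average 16.8, 20.3, 15.8, 1.35 and 1.90% of a variable exon in treated JM1, REH, treated Nalm6, 697 and untreated JM1. Whether matches lay under peaks more often than other exon bases was not tested. In the 300 bases around cluster peak centres the pattern was present in 15.6% in treated JM1, 21.6% in REH, 32.4% in treated Nalm6, 28.6% in 697 and 10.0% in untreated JM1, against 8.18, 8.87, 10.6, 15.5 and 11.6% over the lists. In consecutive 300-base windows through the clusters the pattern was present in 5.31% of alpha, 2.73% of beta and 5.92% of gamma windows. A match describes the letters only and shows no binding.

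Genes that act on or with clustered protocadherins had near-TSS peaks more often than the members, as did protein-coding genes in general. Of 21 regulators, among them CTCF, the cohesin subunits RAD21, SMC1A and SMC3, the silencer SMCHD1 and the DNA methyltransferases, 21 had one in treated JM1, 21 in REH, 20 in treated Nalm6 and 16 each in 697 and untreated JM1, which is 100, 100, 95.2, 76.2 and 76.2% against 81.2, 81.8, 74.3, 49.5 and 58.8% of all genes. RAD21 was without one in untreated JM1 (scores 90 in treated JM1, 89 in REH, 21 in treated Nalm6 and 25 in 697), and CTCF had scores of 83, 135, 40, 45 and 14. Of 13 partners of the proteins, 13, 13, 12, 11 and 13 had one (100, 100, 92.3, 84.6 and 100%). With lists this small and no test, nothing particular to these genes is read from the shares. PTK2B, a kinase of the focal adhesion family, had scores of 170 in treated JM1, 215 in REH, 35 in treated Nalm6, 12 in 697 and 86 in untreated JM1. RAC1, a small GTPase of the actin cytoskeleton, had 94, 131, 58, 21 and 58.

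As a check on cell type, 10 B-cell precursor markers had near-TSS peaks at 9, 8, 9, 3 and 9 genes in treated JM1, REH, treated Nalm6, 697 and untreated JM1, with DNTT at none in every list. Of 12 neuron markers 10, 10, 10, 6 and 9 had one, of 7 T cell markers 3, 2, 2, 2 and 2, and of 6 myeloid markers 5, 5, 5, 2 and 3. Over all genes the shares were 81.2, 81.8, 74.3, 49.5 and 58.8%. Neuron markers were not below these shares in any list, and T cell markers were below them in every list. In 697 the B-cell precursor markers, at 3 of 10, were below both all genes and neuron markers. The check thus did not separate B-cell precursor from neuron markers. A peak is not a measure of expression, and expression was not analysed here.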

How the data were processed

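Ikaros ChIP-seq peak lists of 5 conditions were used, 1 per condition. Nalm6 had 2 Ikaros libraries but 1 list, with no statement of whether they were pooled. Reads were paired and trimmed with BBDuk, per the labels' protocols, and per the submitters' processing notes Bowtie2 2.3.4.3, MACS2 2.1.1, HOMER 4.10 and GRCh38 were used. The deposited score of each peak is a whole number of undefined scale, made by the authors, per the file headers. Peak positions, annotation classes and gene names were used as deposited.

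Calls were made with Python 3.11.15, pandas 2.3.3 and numpy 2.4.6 against the TSSs of all GENCODE 44 transcripts of a gene. On simulated peaks placed at 200 known genes, 200 were called, with 0 disagreements over 20033 genes. Cluster intervals were extended by 1000 bp, and peaks overlapped when they shared 1 bp. Members, gene lists and comparisons were chosen with earlier results of these data known. Values are given for members with a near-TSS peak in all 5 lists or in none, for the 3 highest-scored per cluster and list, and for members whose call differed between the JM1 lists. PCDHGA6, PCDHGA7, PCDHGC4 and PCDHGC5 come under these rules by their near-TSS peaks. Their exon values, the pseudogene regions and the other named exon peaks were chosen after the values were seen. With 1 list per condition no test was made. Read depth was not analysed here.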

Additional observations from a re-analysis of the deposited data

How the results depend on the processing

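Each alternative was set against the counts of the report, and a count was taken as changed when it moved by over 1.5 times. No paired analysis was possible because each condition had 1 list, and no replicate could be left out. Values below run treated JM1, REH, treated Nalm6, 697, untreated JM1 unless stated, and where a list is not named its count stayed within 1.5 times. Taking the peak centre within the window changed none of 21 counts. The low share of members against all genes was not turned by any of these settings. With a window of 500 bp, 1 alpha and 1 gamma gene had a peak in untreated JM1, 2 members had one in both JM1 lists and 1 in all 5 lists. With 2000 bp, the alpha count was 8 in treated JM1 and 10 in treated Nalm6, the gamma count 17 in REH, 14 in treated Nalm6 and 2 in 697, and 22 members had a peak in treated JM1 alone, 1 in untreated JM1 alone and 16 in no list. With the TSS of the gene record alone, 1 gamma gene had a peak in untreated JM1, since PCDHGC3 was called there by a later TSS.

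By the authors' nearest gene name alone, the alpha count was 7 in treated JM1, 9 in treated Nalm6 and 1 in 697, the beta count 1 in REH and 2 in treated Nalm6, the gamma count 3 in 697 and 4 in untreated JM1, and 1 member was in untreated JM1 alone. By TSS window or gene name, a setting added after the data were seen, the counts over all members were 24, 25, 23, 5 and 6. The alpha count was then 7 in treated JM1 and 9 in treated Nalm6, the beta count 2 in treated Nalm6, the gamma count 3 in 697 and 4 in untreated JM1, with 1 member in untreated JM1 alone and 4 in all 5 lists.

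With scores of at least 20, the alpha count was 3 in REH and 0 in untreated JM1, the beta count 0 in treated JM1, 1 in REH and 0 in treated Nalm6, and the gamma count 2 in treated JM1, 5 in REH, 3 in treated Nalm6 and 0 in untreated JM1. Then 5 members had a peak in treated JM1 alone, 0 in both JM1 lists, 0 in all 5 lists and 41 in no list. The peaks left were 4 in treated JM1, 6 in REH and 1 in untreated JM1 in alpha, 1 in treated JM1, 0 in treated Nalm6 and 0 in untreated JM1 in beta, and 6, 11, 13, 1 and 0 in gamma, covering 1.76, 3.99, 3.19, 0.373 and 0.0824% of the 3 clusters, against 5.79, 7.01, 4.75, 0.723 and 1.27% with all peaks.

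With lists of equal length the alpha count was 0 in treated JM1, 0 in REH, 1 in treated Nalm6 and 1 in untreated JM1, the beta count 0 in treated JM1, REH and treated Nalm6, and the gamma count 2 in treated JM1, 2 in REH, 1 in treated Nalm6 and 1 in untreated JM1. Then 1 member each was in treated JM1 alone, in untreated JM1 alone and in both, 0 in all 5 lists and 48 in no list. The peaks left in alpha were 1 in treated JM1, 1 in REH and 3 in treated Nalm6, in beta 1 in treated JM1 and 0 in REH, treated Nalm6 and untreated JM1, and in gamma 3 in treated JM1, 6 in REH, 5 in treated Nalm6 and 1 in untreated JM1. They covered 0.67% of the clusters in treated JM1, 2.44% in REH, 1.13% in treated Nalm6 and 0.568% in untreated JM1. In these settings the lists hold fewer peaks by construction.

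With a reciprocal overlap of 50%, 1 treated JM1 peak overlapped an untreated one and 1 the other way round, 5 REH peaks overlapped an untreated JM1 peak and 5 the other way round, and 3 treated Nalm6 peaks overlapped a 697 peak and 3 the other way round. Read depth was not analysed here, and how far it limits these counts was not tested. A gene without a listed peak may have had signal under the authors' threshold.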
